A study of Homo sapiens with 24 samples.

Results

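The genes described here are 39 targets of the hypoxia-inducible factors (HIFs) that lie outside core glycolysis. They were chosen by name, with earlier results of these data known, so their counts beside all genes are descriptive. Each was looked up by symbol in the deposited gene table. All 39 were among its 58735 genes, and all 39 were among the 19210 genes with enough counts to test. They were measured in OVCAR8 cells, an established human cell line from ovarian cancer of the high grade serous type, kept in ultra-low attachment plates where cells do not adhere to plastic. Each of the 8 groups held 3 libraries of polyA RNA, and the medium named for a group was mixed 1:1 with RPMI medium containing 5% serum.

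The groups differed in that medium. Fresh medium was the control. Proliferative medium had been conditioned by vehicle-treated dividing cells, and senescent medium by cells driven into senescence with cisplatin, a platinum chemotherapy drug. Senescent medium was also given boiled, as the fraction below 3 kDa (the small fraction) and as the fraction above 3 kDa (the large fraction). A further pair of groups had been pre-treated with one or the other conditioned medium; which medium came afterwards is not stated in the labels. The labels name no oxygen level, no hypoxia treatment and no genetic change in any group, and every group is the same cell line.

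HIFs are transcription factors made of an oxygen-regulated alpha subunit (HIF1A, EPAS1 or HIF3A) and a stable beta subunit (ARNT or ARNT2). With oxygen present, prolyl hydroxylases such as EGLN1 mark the alpha subunit, the VHL ubiquitin ligase complex binds the mark, and the subunit is degraded; when hydroxylation stops, the alpha subunit builds up and switches on genes for glycolysis, blood vessel growth, pH control, collagen processing and removal of mitochondria. HIF dimers bind DNA at hypoxia response elements, whose core is ACGTG or GCGTG. In ovarian and other tumours, members of this program such as CA9 and VEGFA are widely used as markers of hypoxic tissue.

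Promoter windows are shown first for 6 genes with large falls in the small fraction against the large fraction. NDRG1 and STC1, which had no window, fell more than most of these 6. The set of RefSeq promoter windows used here (GRCh38.p14) held 31 of the 39 genes. That set had no window for VEGFA, STC1, LOXL2, BNIP3L, SLC2A3, HILPDA, NDRG1 and FUT11. The 250 bases before the annotated start were searched on both strands for ACGTG and for GCGTG; on the opposite strand these read CACGT and CACGC, and each run of capitals below is a match or overlapping matches. The 6 genes are those with the largest falls among the 31 with a window, and all windows are on GRCh38.p14: CA9 at chr9:35673678-35673927, plus strand; ANGPTL4 at chr19:8363905-8364154, plus strand; PDK1 at chr2:172555123-172555372, plus strand, and a further start at chr2:172555840-172556089, plus strand; APLN at chrX:129654957-129655206, minus strand; PFKFB4 at chr3:48556804-48557053, minus strand; BNIP3 at chr10:131981924-131982173, minus strand.
CA9: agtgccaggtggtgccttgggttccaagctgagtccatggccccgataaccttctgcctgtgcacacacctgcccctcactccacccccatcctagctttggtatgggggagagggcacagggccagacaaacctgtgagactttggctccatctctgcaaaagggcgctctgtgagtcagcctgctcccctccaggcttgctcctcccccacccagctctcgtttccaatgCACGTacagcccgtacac
ANGPTL4: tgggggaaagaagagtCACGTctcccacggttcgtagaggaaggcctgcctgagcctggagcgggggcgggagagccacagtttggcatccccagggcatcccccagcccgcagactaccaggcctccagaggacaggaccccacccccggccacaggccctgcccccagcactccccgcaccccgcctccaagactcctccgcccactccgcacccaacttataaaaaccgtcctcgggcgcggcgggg
PDK1, start 1: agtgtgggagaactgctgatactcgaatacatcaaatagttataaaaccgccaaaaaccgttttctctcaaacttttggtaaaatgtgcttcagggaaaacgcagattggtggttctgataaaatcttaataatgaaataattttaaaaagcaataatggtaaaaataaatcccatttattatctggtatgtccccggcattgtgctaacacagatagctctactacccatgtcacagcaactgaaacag
PDK1, start 2: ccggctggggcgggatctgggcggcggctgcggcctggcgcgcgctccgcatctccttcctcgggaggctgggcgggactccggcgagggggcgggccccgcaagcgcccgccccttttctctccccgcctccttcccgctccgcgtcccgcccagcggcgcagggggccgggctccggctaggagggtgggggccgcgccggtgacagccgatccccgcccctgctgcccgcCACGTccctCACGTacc
APLN: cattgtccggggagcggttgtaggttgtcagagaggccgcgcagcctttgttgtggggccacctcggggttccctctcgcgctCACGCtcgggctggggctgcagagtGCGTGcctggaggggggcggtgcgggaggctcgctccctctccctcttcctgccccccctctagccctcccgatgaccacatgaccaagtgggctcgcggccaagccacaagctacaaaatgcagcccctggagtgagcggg
PFKFB4: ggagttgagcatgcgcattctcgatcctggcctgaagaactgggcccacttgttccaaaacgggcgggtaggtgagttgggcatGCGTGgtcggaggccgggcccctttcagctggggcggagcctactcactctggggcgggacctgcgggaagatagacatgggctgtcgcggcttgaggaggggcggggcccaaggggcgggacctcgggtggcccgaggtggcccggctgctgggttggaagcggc
BNIP3: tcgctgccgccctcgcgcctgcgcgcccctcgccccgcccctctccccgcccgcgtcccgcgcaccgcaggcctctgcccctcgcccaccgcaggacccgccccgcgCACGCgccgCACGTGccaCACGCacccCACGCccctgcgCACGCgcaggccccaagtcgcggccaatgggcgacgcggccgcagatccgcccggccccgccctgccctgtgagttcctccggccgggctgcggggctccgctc

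The CA9 window held its ACGTG match on the opposite strand, beginning 18 bases before the start. In ANGPTL4 the match lay farther away, 234 bases before the start. PDK1 had no match of either motif at its start 1 and 2 ACGTG matches at its start 2, 17 and 8 bases before it. APLN held 2 GCGTG matches and no ACGTG, and PFKFB4 held 1 GCGTG and no ACGTG. BNIP3 held 4 GCGTG matches and a palindromic CACGTG that counts as ACGTG on both strands. Windows were available for 11957 of the 19210 genes tested, with 17318 windows. Among the members' 41 windows, 56.1% held ACGTG, against 21.8% of those 17318 windows and 18.5% of all 35116 windows. For GCGTG these shares were 58.5%, 42.2% and 32.2%, and the median GC content of the windows was 68.4%, 64% and 58% in the same order. The member windows were thus richer in GC, and a letter match is a description of the window, not a measured binding site.

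Total counts ran from 14718120 to 21956598 per library, and transcripts of the mitochondrial genome made up 4.09% to 6.85% of the counts. The epithelial markers PAX8, EPCAM, KRT7, KRT8 and KRT18 were expressed in every group, while CDH1 and KRT19 were near 0 FPKM; the leukocyte markers summed to at most 3.65 FPKM and the endothelial markers to at most 1.25 FPKM. Among 5 stromal markers, which summed to 125 to 227 FPKM, COL1A1 was the main part; COL3A1 and DCN stayed below 1 FPKM in every library, while LUM reached 1.8 FPKM and PDGFRB ran from 5.62 to 13.1 FPKM. FPKM are the authors' deposited values, which are scaled by library size and by a gene length that matches the deposited length column. The length of the transcript these cells use was not measured, so FPKM of different genes are compared only loosely. Log2 fold changes come from edgeR's quasi-likelihood test on the deposited counts and are given with an approximate standard error (±); a gene is called, and is said to have risen or fallen, at a Benjamini-Hochberg adjusted p under 0.05 over all 19210 genes. The labels do not say that the 3 libraries of a group came from separate cultures, so the p-values measure the spread between libraries, which may be technical. Most genes with library values below were picked for a large called change, for which groups that do not overlap are likely. Such separation was not counted over all genes, so it describes the values and adds no support to a call. In bulk RNA, fewer cells with a transcript and less of it per cell cannot be told apart. Strand use in counting is not given in the sources used here, and reads of SLC2A3 and BNIP3 may be shared with near-identical copies (SLC2A14, and a BNIP3 pseudogene), so these values are uncertain to that extent.

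Across the 8 groups, 22 of the 39 genes had their highest mean FPKM in proliferative medium and 14 after pre-treatment with it. The exceptions were EGLN1 and RORA, highest in the large fraction, and CA12, highest in senescent medium. The lowest mean was in the small fraction for 24 genes and in fresh medium for 13, with BHLHE40 lowest in senescent medium and CA12 lowest in boiled medium. How many of all genes tested have their highest or lowest mean in these groups was not counted. These orders therefore describe the 39 genes alone. BHLHE41, CA12 and EGLN3 stayed below 1 FPKM in every group mean, and their values rest on few counts.

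**Figure D1:**
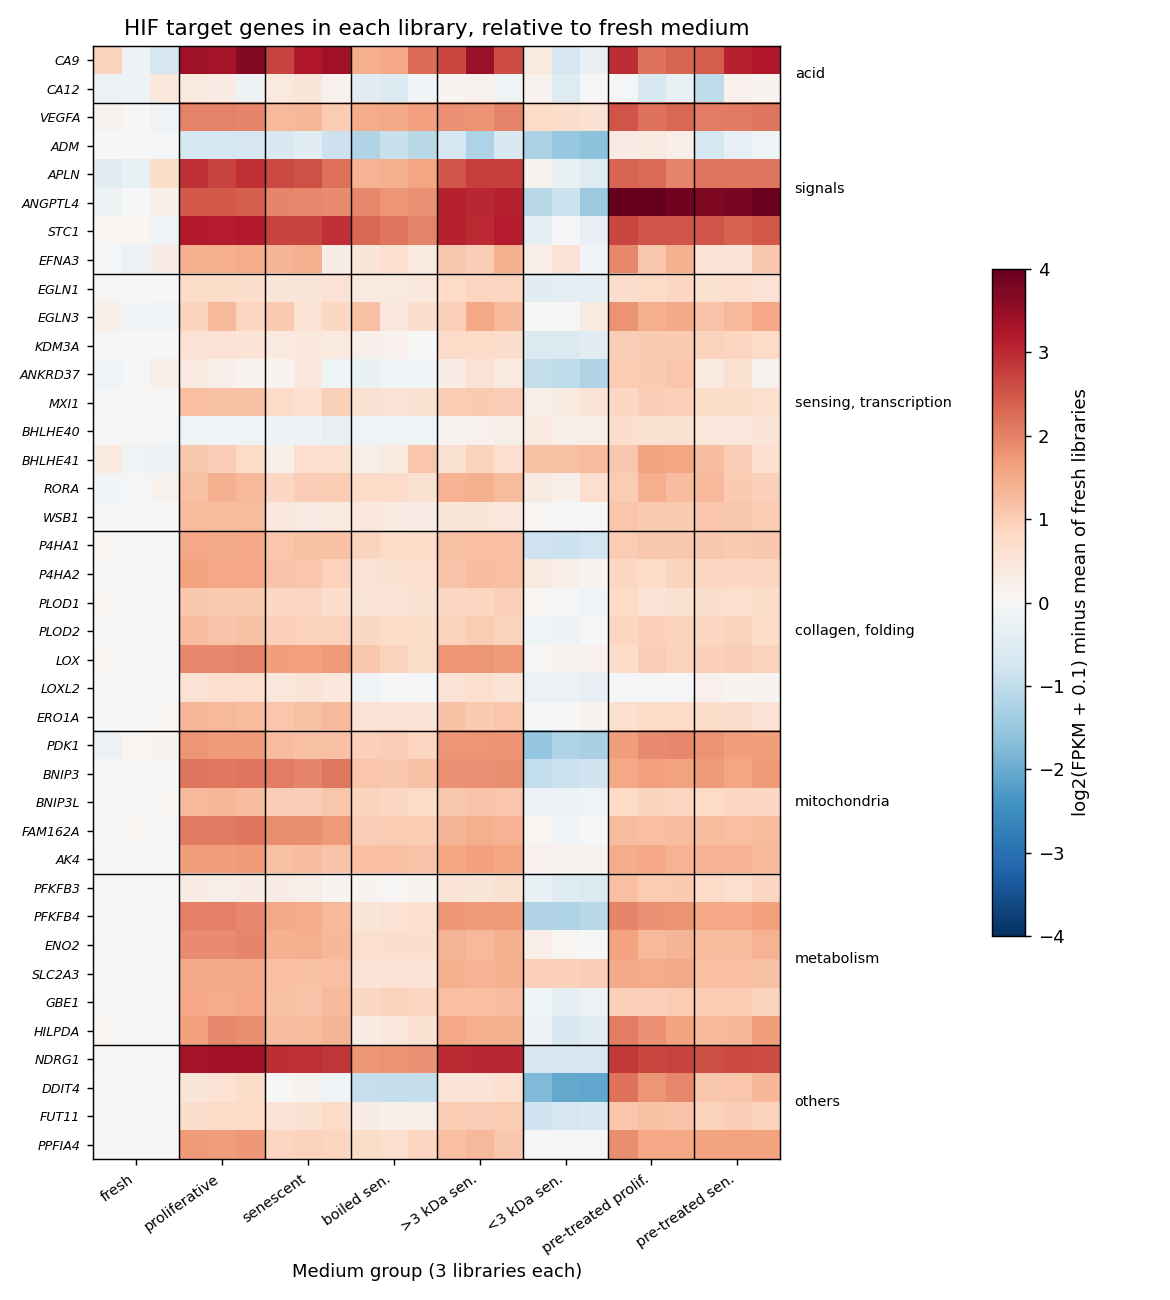
Each row is 1 of the 39 genes and each column 1 of the 24 libraries; colour gives log2(FPKM + 0.1) minus the gene's mean over the 3 fresh libraries, red above and blue below fresh medium, on a scale from -4 to 4 (larger values take the end colour). Most rows are red in proliferative, senescent, large-fraction and pre-treated libraries and pale or blue in the small fraction; ADM is blue in every directly treated group.

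Proliferative against fresh medium asks what medium conditioned by dividing cells does to these genes. In this comparison 35 of the 39 genes rose and 2 fell, where 20.6% of all genes tested rose and 21.5% fell. At least a 2-fold rise was reached by 29 of the 39 and by 4.88% of all genes. The median log2 fold change of the 39 was 1.52, beside 0.005 for all genes. Rises were found in every role group, from oxygen sensing to collagen processing, and the genes that fell were BHLHE40 and ADM. Markers of proliferation moved too: 4 of 4 fell, and their summed level was 309 to 324 FPKM in fresh and 209 to 213 FPKM in proliferative medium. Their part in the result was not tested.

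Acid handling was led by CA9 (chromosome 9, 35673856 to 35681159, plus strand, GRCh38), a membrane carbonic anhydrase that turns carbon dioxide into bicarbonate and protons outside the cell. CA9 had 6, 1 and 0 counts in the fresh-medium libraries and 48, 42 and 49 in the proliferative-medium libraries, or 0.201, 0.0385 and 0 FPKM and 1.59, 1.48 and 1.97 FPKM. The lowest proliferative library was far above the highest fresh one, so the groups did not overlap. Its log2 fold change was 4.29 ± 0.53 (adjusted p = 7.81e-09), the largest of the 39, although a fold against so few fresh counts is imprecise. CA12, its relative, was at 0.191, 0.193 and 0.356 FPKM in fresh and 0.348, 0.315 and 0.193 FPKM in proliferative medium; these ranges overlapped and it was not called (adjusted p = 0.656).

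Among secreted or surface signals, 5 of 6 genes rose. STC1, the secreted glycoprotein stanniocalcin, was at 1.39, 1.38 and 1.17 FPKM in fresh and 12.7, 12.2 and 12.5 FPKM in proliferative medium, a log2 fold change of 3.25 ± 0.1 (adjusted p = 3.42e-28). APLN (chromosome X, 129645259 to 129654937, minus strand, GRCh38), the peptide ligand of the apelin receptor, was at 0.209, 0.241 and 0.587 FPKM and 3.09, 2.6 and 3.06 FPKM, a log2 fold change of 3.05 ± 0.23 (adjusted p = 1.03e-14). ANGPTL4, a secreted inhibitor of lipoprotein lipase, went from 0.857, 1.01 and 1.18 FPKM to 6.0, 6.02 and 5.74 FPKM, a log2 fold change of 2.53 ± 0.13 (adjusted p = 4.3e-20). In all of these genes every proliferative library was above every fresh one. VEGFA, the main growth factor for blood vessels, was at 3.35, 2.96 and 2.75 FPKM in fresh and 12.3, 12.2 and 11.9 FPKM in proliferative medium (log2 fold change 2.0 ± 0.09), and EFNA3, an ephrin ligand, rose by 1.53 ± 0.26 on the log2 scale. ADM, the vasodilator peptide adrenomedullin, went the other way, from 13.7, 13.8 and 13.2 FPKM to 8.22, 8.34 and 8.53 FPKM, a log2 fold change of -0.7 ± 0.14 (adjusted p = 2.08e-04). Each proliferative library was below each fresh one, so this signal fell while the others rose.

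**Figure D2:**
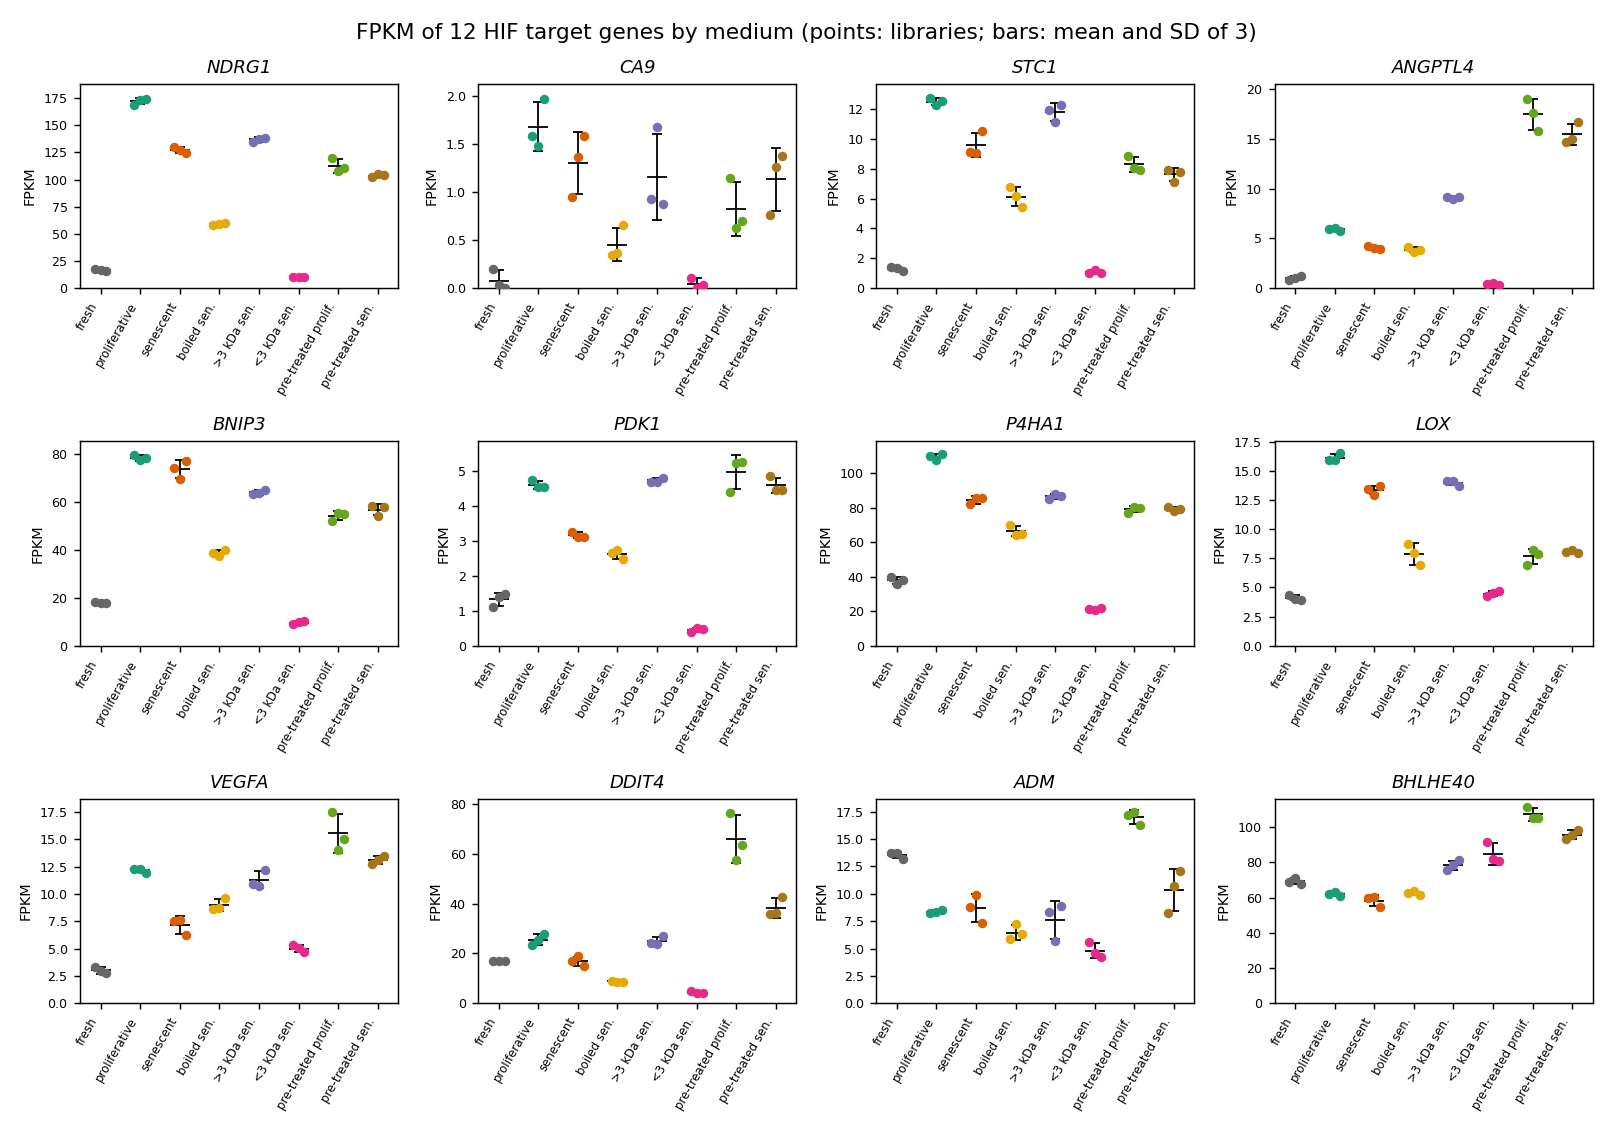
FPKM (vertical axis) of 12 targets in each of the 24 libraries, by medium group (horizontal axis); points are libraries and bars the mean and SD of 3. CA9 and ANGPTL4 are near 0 in fresh medium and the small fraction, and ADM has its higher values in fresh medium and after pre-treatment with proliferative medium.

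In the group for oxygen sensing, transcription and chromatin, 7 of 9 genes rose and BHLHE40 fell. RORA (chromosome 15, 60488284 to 61229319, minus strand, GRCh38), a nuclear receptor, was at 0.624, 0.657 and 0.757 FPKM in fresh and 1.63, 1.97 and 1.81 FPKM in proliferative medium (log2 fold change 1.4 ± 0.12, adjusted p = 1.23e-11). WSB1, a substrate adaptor of a ubiquitin ligase, was at 13, 13.7 and 13.5 FPKM and 32.4, 32.1 and 32.3 FPKM (log2 fold change 1.27 ± 0.04, adjusted p = 1.11e-26). MXI1, an antagonist of MYC, was at 8.49, 9.09 and 8.7 FPKM and 20.3, 19.7 and 19.8 FPKM (log2 fold change 1.18 ± 0.07, adjusted p = 8.99e-19). The groups did not overlap in any of these genes. The prolyl hydroxylases that close the feedback loop on HIF rose as well, EGLN1 by 0.73 ± 0.04 and EGLN3 by 1.26 ± 0.24 on the log2 scale, as did the histone demethylase KDM3A by 0.57 ± 0.05 and the repressor BHLHE41 by 1.38 ± 0.4. ANKRD37, an ankyrin repeat protein, was not called (0.23 ± 0.17, adjusted p = 0.28). The repressor BHLHE40, which is abundant in these cells, was at 69.1, 71.1 and 67.7 FPKM in fresh and 62.1, 63.5 and 61 FPKM in proliferative medium, a log2 fold change of -0.16 ± 0.04 (adjusted p = 0.00305).

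All 7 genes of collagen modification and oxidative folding rose. LOX (chromosome 5, 122063195 to 122078360, minus strand, GRCh38), a lysyl oxidase that cross-links collagen, was at 4.4, 4.03 and 3.94 FPKM in fresh and 16, 16 and 16.6 FPKM in proliferative medium (log2 fold change 1.96 ± 0.07, adjusted p = 1.35e-25). P4HA1 and P4HA2 are the catalytic subunits of collagen prolyl hydroxylase. P4HA2 was at 4.17, 3.96 and 4.32 FPKM and 12.8, 12.2 and 12.3 FPKM (log2 fold change 1.58 ± 0.06, adjusted p = 4.14e-24), and P4HA1 was at 39.8, 35.6 and 38.3 FPKM and 110.2, 107 and 111 FPKM (log2 fold change 1.53 ± 0.04, adjusted p = 1.01e-29). P4HA1 had the higher FPKM in both groups, on the deposited gene lengths, and no library of one group reached the range of the other. The remaining members, the lysyl hydroxylases PLOD1 and PLOD2, the lysyl oxidase LOXL2 and the endoplasmic reticulum oxidase ERO1A, had log2 fold changes of 0.64 to 1.31.

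All 5 mitochondrial genes rose. BNIP3 (chromosome 10, 131966455 to 131982013, minus strand, GRCh38) and BNIP3L are outer-membrane receptors that hand mitochondria over to autophagy. BNIP3 was at 18.1, 17.7 and 17.7 FPKM in fresh and 79.7, 77.4 and 78.2 FPKM in proliferative medium (log2 fold change 2.13 ± 0.05, adjusted p = 3.06e-34). FAM162A, a mitochondrial protein linked to cell death under hypoxia, was at 7.86, 8.34 and 7.52 FPKM and 33.5, 33.5 and 35.3 FPKM (log2 fold change 2.1 ± 0.06, adjusted p = 9.92e-30). PDK1, the kinase that shuts pyruvate out of the mitochondrion by inhibiting pyruvate dehydrogenase, was at 1.12, 1.4 and 1.48 FPKM and 4.74, 4.55 and 4.53 FPKM (log2 fold change 1.79 ± 0.08, adjusted p = 2.74e-22). The groups did not overlap. BNIP3L rose by 1.28 ± 0.04 and AK4, a mitochondrial adenylate kinase, by 1.69 ± 0.05 on the log2 scale. Transcripts of the mitochondrial genome moved the other way, from 5.93% to 6.12% of counts in fresh medium to 4.55% to 4.58% in proliferative medium.

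All 6 genes of sugar, glycogen and lipid metabolism rose. PFKFB4 (chromosome 3, 48517684 to 48562015, minus strand, GRCh38), which with PFKFB3 sets the level of the sugar phosphate that activates phosphofructokinase, was at 5.98, 6.15 and 5.71 FPKM in fresh and 24.1, 24.4 and 22.9 FPKM in proliferative medium (log2 fold change 2.0 ± 0.06, adjusted p = 5.59e-29). ENO2, the neuronal form of enolase, was at 48.5, 46 and 46.7 FPKM and 175, 174 and 182 FPKM (log2 fold change 1.9 ± 0.07, adjusted p = 2.29e-15). HILPDA, a lipid droplet protein that slows the breakdown of stored fat, was at 2.46, 2.3 and 2.22 FPKM and 7.46, 9.01 and 8.63 FPKM (log2 fold change 1.84 ± 0.14, adjusted p = 5.99e-15). In each of these genes the proliferative libraries all lay above the fresh ones. The glucose transporter SLC2A3 and the glycogen branching enzyme GBE1 rose by 1.52 ± 0.05 and 1.53 ± 0.05, and PFKFB3 by only 0.27 ± 0.06.

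The last role group also rose throughout, 4 of 4. NDRG1, a stress-response protein that restrains growth and spread of tumour cells, was at 17.5, 17.1 and 16 FPKM in fresh and 169, 174 and 174 FPKM in proliferative medium, a log2 fold change of 3.35 ± 0.04 (adjusted p = 1.44e-44). PPFIA4 (chromosome 1, 203026498 to 203078740, plus strand, GRCh38), a scaffold of the liprin family, was at 2.66, 2.73 and 2.63 FPKM and 8.89, 8.72 and 9.13 FPKM (log2 fold change 1.73 ± 0.07, adjusted p = 1.56e-23). FUT11, a fucosyltransferase, was at 19.2, 19.7 and 19.2 FPKM and 31.6, 32.8 and 33.1 FPKM (log2 fold change 0.74 ± 0.05, adjusted p = 2.67e-16). NDRG1 was thus among the most abundant members as well as among those with the largest change. DDIT4, an inhibitor of mTOR signalling, was at 16.8, 16.9 and 16.9 FPKM and 23.4, 25.3 and 27.9 FPKM, a log2 fold change of 0.59 ± 0.09 (adjusted p = 6.74e-06).

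**Figure D3:**
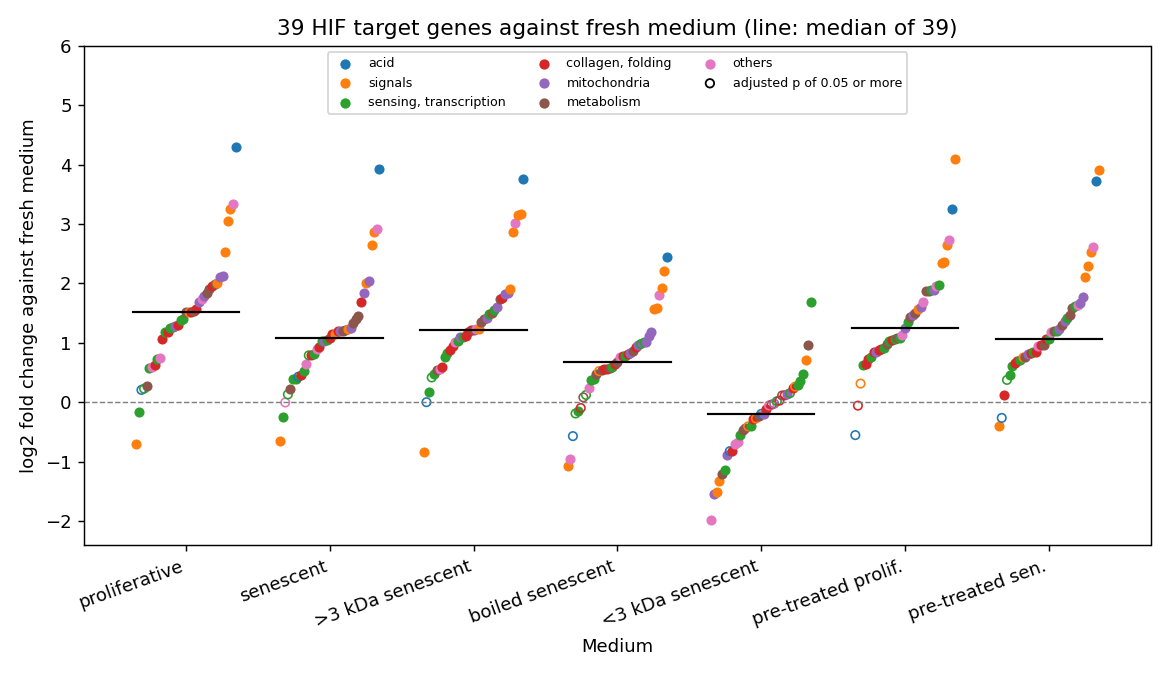
Log2 fold change against fresh medium of the 39 genes in each of the 7 other groups, with colour for the role and open points for genes that were not called; the horizontal lines are the medians of the 39. The medians are above 0 in every group except the small fraction, where the median is -0.2. All 7 comparisons share the 3 fresh libraries.

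Senescent against fresh medium gave 33 genes higher and 2 lower, beside 18.2% and 15.5% of all genes. A rise of at least 2-fold was reached by 23 of the 39 and 2.5% of all genes, and the median log2 fold change was 1.07. The largest rises were in CA9, NDRG1, STC1 and APLN. In the senescent-medium libraries CA9 was at 0.955, 1.37 and 1.58 FPKM (log2 fold change 3.94 ± 0.55, adjusted p = 2.08e-07). NDRG1 was at 130.4, 127 and 124 FPKM (log2 fold change 2.91 ± 0.04, adjusted p = 2.52e-42), STC1 at 9.13, 9.07 and 10.5 FPKM (2.87 ± 0.1) and APLN at 2.51, 2.32 and 1.83 FPKM (2.66 ± 0.24). Each senescent library was above each fresh library in these genes. The genes that fell were again BHLHE40, at 59.7, 60.7 and 54.7 FPKM (log2 fold change -0.25 ± 0.04, adjusted p = 1.92e-05), and ADM, at 8.78, 9.91 and 7.37 FPKM (-0.64 ± 0.14, adjusted p = 7.88e-04). DDIT4 was at 16.8, 18.8 and 15 FPKM and was not called, with a log2 fold change of -0.004 ± 0.1. With a correction for GC content and gene length, DDIT4 was called lower. This comparison and the previous one share the fresh libraries.

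The direct comparison of senescent with proliferative medium sets cisplatin-treated senescent donor cells against vehicle-treated dividing ones. Drug treatment and senescence of the donors cannot be told apart in it. Here 0 of the 39 genes rose and 26 fell, while 16.6% of all genes rose and 12.4% fell. At an unadjusted p under 0.05 there were also 0 that rose, and by DESeq2 0. The median was -0.36 on the log2 scale and no member reached a 2-fold change. WSB1 had the largest fall, to 18.1, 17 and 17.6 FPKM in senescent medium from the proliferative values given above, a log2 fold change of -0.88 ± 0.04 (adjusted p = 5.46e-20). PPFIA4 was at 4.93, 5.14 and 4.92 FPKM in senescent medium (log2 fold change -0.83 ± 0.07, adjusted p = 6.0e-13), VEGFA at 7.55, 7.65 and 6.25 FPKM (-0.76 ± 0.08, adjusted p = 3.5e-07) and DDIT4 at the level given above (-0.6 ± 0.1, adjusted p = 1.34e-05). All 3 senescent libraries were below all 3 proliferative libraries for each of these 4 genes. By role, 6 of 7 collagen genes, 4 of 5 mitochondrial genes and 5 of 6 metabolic genes fell. CA9 was not called (log2 fold change -0.36 ± 0.35, adjusted p = 0.488), nor was BNIP3 (-0.09 ± 0.04, adjusted p = 0.136). The proliferation markers rose in this comparison, 4 of 4, with sums of 301 to 309 FPKM in senescent and 209 to 213 FPKM in proliferative medium, and their part was not tested.

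The fractions of senescent medium were compared by size class. No fraction of fresh or proliferative medium is among the groups, so effects of the fractionation itself cannot be told apart. In the large fraction against fresh medium, 36 of the 39 genes rose and 1 fell, beside 13.9% and 13% of all genes, with 27 rising at least 2-fold beside 2.28%. The median log2 fold change was 1.22. CA9 was at 0.93, 1.68 and 0.873 FPKM in the large fraction (log2 fold change against fresh 3.77 ± 0.55, adjusted p = 5.71e-07). STC1 was at 11.9, 11.1 and 12.3 FPKM (3.16 ± 0.1), ANGPTL4 at 9.2, 8.95 and 9.2 FPKM (3.16 ± 0.13) and NDRG1 at 135, 138 and 139 FPKM (3.02 ± 0.04). Fresh libraries were lower in every case, with no overlap. ADM was the gene that fell, at 8.36, 5.67 and 8.9 FPKM (log2 fold change -0.83 ± 0.14, adjusted p = 5.55e-05).

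Set directly against intact senescent medium, the large fraction gave 18 genes higher and 2 lower, beside 8.14% and 10% of all genes, with a median of 0.21. ANGPTL4 rose most (log2 fold change 1.15 ± 0.1, adjusted p = 1.08e-11), and was the one member past 2-fold. VEGFA was at 10.9, 10.8 and 12.2 FPKM (log2 fold change against senescent 0.66 ± 0.08, adjusted p = 6.92e-06), PDK1 at 4.69, 4.69 and 4.81 FPKM against 3.26, 3.1 and 3.11 FPKM in senescent medium (0.58 ± 0.07, adjusted p = 1.09e-07), and DDIT4 at 24.1, 23.9 and 26.8 FPKM (0.57 ± 0.09, adjusted p = 6.0e-05). These 4 genes did not overlap between the groups. FAM162A and BNIP3 went the other way: FAM162A was at 20.5, 22 and 20.9 FPKM in the large fraction and 29.1, 29.2 and 26.2 FPKM in senescent medium (-0.42 ± 0.05, adjusted p = 2.1e-07), and BNIP3 at 63.2, 63.6 and 65.1 FPKM and 74.3, 69.8 and 77.2 FPKM (-0.21 ± 0.04, adjusted p = 4.42e-04). No collagen gene other than LOXL2 (0.14 ± 0.04) was called, and that call was lost without large-fraction replicate 2 (adjusted p = 0.0911), senescent replicate 1 (0.0569) or senescent replicate 3 (0.0642).

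The small fraction differed from the large one in most of the list. Of the 39 genes 36 fell and 1 rose in the small against the large fraction, where 18.3% of all genes fell and 16.8% rose. Falls of at least 2-fold were found in 28 of the 39 and in 1.96% of all genes, and the median was -1.29 on the log2 scale. CA9 had 3, 0 and 1 counts in the small-fraction libraries and 30, 54 and 27 in the large-fraction libraries, or 0.11, 0 and 0.0311 FPKM in the small fraction (log2 fold change -4.59 ± 0.6, adjusted p = 3.96e-08). ANGPTL4 was at 0.419, 0.513 and 0.293 FPKM (log2 fold change -4.48 ± 0.15, adjusted p = 2.02e-27), NDRG1 at 10.7, 10.5 and 10.7 FPKM (-3.69 ± 0.04, adjusted p = 6.69e-46) and STC1 at 0.988, 1.24 and 1.03 FPKM (-3.44 ± 0.1, adjusted p = 8.14e-29). Every large-fraction library lay above every small-fraction library for these genes. The other genes whose promoter windows are shown above also fell: PDK1 was at 0.386, 0.507 and 0.474 FPKM in the small fraction (-3.37 ± 0.09), APLN at 0.363, 0.249 and 0.194 FPKM (-3.28 ± 0.24), PFKFB4 at 2.53, 2.48 and 2.73 FPKM (-2.94 ± 0.07) and BNIP3 at 8.91, 9.77 and 10.2 FPKM (-2.73 ± 0.05). Neither fraction's libraries reached the other's range in these genes. BHLHE40 was the exception, at 91.7, 82 and 80.8 FPKM in the small and 76, 78.3 and 81.2 FPKM in the large fraction (0.11 ± 0.04, adjusted p = 0.0432). It is no longer called without small-fraction replicate 1 (0.051, adjusted p = 0.423), without large-fraction replicate 1 (adjusted p = 0.194) or without large-fraction replicate 2 (adjusted p = 0.106). Nor is it called with DESeq2 (adjusted p = 0.0539), limma on log2(FPKM + 1) or log2(FPKM + 0.1) (0.0707 and 0.0713), no filter on low counts (0.133) or a fit of only these groups (0.105). The proliferation markers fell as well, 4 of 4, with sums of 158 to 170 FPKM in the small and 283 to 297 FPKM in the large fraction; their part in the result was not tested.

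Against intact senescent medium the small fraction gave 36 genes that fell and 2 that rose, beside 22.7% and 19.9% of all genes. At least a 2-fold fall was reached by 21 of the 39 and 2.42% of all genes, and the median was -1.05. The largest falls were in CA9 (log2 fold change -4.76 ± 0.6, adjusted p = 1.18e-08), NDRG1 (-3.58 ± 0.04, adjusted p = 1.92e-45), ANGPTL4 (-3.33 ± 0.16, adjusted p = 6.55e-21) and STC1 (-3.14 ± 0.11, adjusted p = 6.88e-27), whose values in both groups are given above and did not overlap. Here the repressors of the basic helix-loop-helix family stood against the direction. BHLHE40 rose by 0.54 ± 0.04 (adjusted p = 1.03e-13). BHLHE41 was at 0.152, 0.248 and 0.239 FPKM in senescent medium and 0.387, 0.39 and 0.42 FPKM in the small fraction, a log2 fold change of 0.9 ± 0.36 (adjusted p = 0.0438). That call of BHLHE41 was lost on leaving out any 1 of the 6 libraries, with adjusted p from 0.055 without senescent replicate 2 to 0.174 without senescent replicate 1. CA12 was the member with no call in this comparison. The proliferation markers fell too, 4 of 4, 2 of them at least 2-fold, with a median of -0.98 and sums of 158 to 170 FPKM in the small fraction and 301 to 309 FPKM in senescent medium; their part was not tested.

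Against fresh medium, the small fraction split the list. It gave 18 genes lower and 8 higher, beside 22.5% and 22.1% of all genes, and a median of -0.2. That median was -0.126 without fresh replicate 3 and -0.077 with limma on log2(FPKM + 1). The share that rose was thus near that of all genes. At least 2-fold falls were found in 6 of the 39 and 2.67% of all genes. DDIT4 was at 4.93, 4.03 and 3.93 FPKM in the small fraction (log2 fold change against fresh -1.98 ± 0.11, adjusted p = 5.86e-15), and PDK1, with the values given above, changed by -1.54 ± 0.1 (adjusted p = 1.69e-16). ADM was at 5.56, 4.63 and 4.26 FPKM (-1.5 ± 0.14, adjusted p = 7.0e-09) and ANGPTL4 changed by -1.32 ± 0.21 (adjusted p = 1.14e-06). All 4 were lower in every small-fraction library than in every fresh library, so these genes lay below the control level. CA9 was not called against fresh (-0.82 ± 0.97, adjusted p = 0.522), and its counts in both groups are near the limit of detection. Proliferation markers fell, 4 of 4, from sums of 309 to 324 FPKM in fresh medium to 158 to 170 FPKM in the small fraction, and their part was not tested.

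The 8 genes that rose in the small fraction against fresh medium were SLC2A3, RORA, P4HA2, VEGFA, MXI1, BHLHE41, BHLHE40 and AK4. Over the alternatives other than leaving out a library, 7 to 10 members rose. SLC2A3 was at 8.86, 8.44 and 9.12 FPKM in fresh medium and 17.3, 17.1 and 17.4 FPKM in the small fraction (log2 fold change 0.97 ± 0.05, adjusted p = 1.39e-21). VEGFA was at 5.3, 5.02 and 4.64 FPKM (0.72 ± 0.09, adjusted p = 1.22e-06) and RORA at 0.89, 0.804 and 1.15 FPKM (0.48 ± 0.13, adjusted p = 0.00244). A glucose transporter and a vessel growth factor were therefore higher than in fresh medium. MXI1 was at 10.01, 11.1 and 12.4 FPKM (0.35 ± 0.07), P4HA2 at 5.32, 4.96 and 4.53 FPKM (0.24 ± 0.07) and BHLHE40 at the values given above (0.29 ± 0.04). BHLHE41, below 1 FPKM, was at 0.184, 0.0977 and 0.0841 FPKM in fresh medium (1.69 ± 0.39). In these 7 genes the groups did not overlap. AK4 was at 7.29, 7.38 and 7.74 FPKM in fresh medium and 8.45, 8.18 and 8.23 FPKM in the small fraction (0.15 ± 0.05, adjusted p = 0.0145). Its call was lost without fresh replicate 1 (adjusted p = 0.0716) or small-fraction replicate 1 (adjusted p = 0.0517). It was also lost without a filter on low counts and in a fit of only these groups. By role, 4 of 6 metabolic genes, 3 of 5 mitochondrial genes and 3 of 4 in the last group fell. With a correction for GC content and gene length these counts were 2 of 6, 2 of 5 and 4 of 4. In the main fit 1 of 7 collagen genes rose and 3 fell, and this correction called 3 higher and 3 lower. Under it GBE1 went from -0.24 to -0.02 (adjusted p = 0.8) and BNIP3L from -0.19 to -0.05 (adjusted p = 0.34). HILPDA (-0.43) lost its call under it (adjusted p = 0.0647), in a fit of only these groups (0.0828) and without fresh replicate 1 or 2 or small-fraction replicate 2 or 3, with adjusted p from 0.0546 to 0.154.

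Senescent medium was also given boiled. No boiled fresh or proliferative medium is among the groups, so effects of boiling on the medium itself cannot be told apart from loss of heat-sensitive secreted components. In boiled senescent against fresh medium 29 genes rose and 3 fell, beside 14% and 13.9% of all genes. A rise of at least 2-fold was found in 10 of the 39 and 2.41% of all genes, and the median was 0.69. CA9 was at 0.342, 0.366 and 0.658 FPKM in boiled medium (log2 fold change against fresh 2.45 ± 0.62, adjusted p = 0.00207). STC1 was at 6.77, 6.18 and 5.46 FPKM (2.22 ± 0.11), ANGPTL4 at 4.14, 3.67 and 3.84 FPKM (1.93 ± 0.14) and NDRG1 at 58.1, 59.2 and 60.1 FPKM (1.8 ± 0.04). Each of these genes was higher in every boiled library than in any fresh one. ADM, at 5.84, 7.2 and 6.3 FPKM, fell by 1.08 on the log2 scale (adjusted p = 1.76e-06), and DDIT4, at 8.88, 8.65 and 8.7 FPKM, had a log2 fold change of -0.95 ± 0.1 (adjusted p = 1.66e-08). BHLHE40, at 62.8, 63.6 and 61.7 FPKM, had one of -0.15 ± 0.04 (adjusted p = 0.00847), which was not called without fresh replicate 2 (adjusted p = 0.0627). Of the proliferation markers 4 of 4 fell against fresh medium, to sums of 239 to 249.5 FPKM, and 3 of 4 fell against intact senescent medium; their part was not tested.

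Boiled against intact senescent medium gave 27 genes lower and 1 higher, beside 14.7% and 11.2% of all genes, with a median of -0.35. CA9 (log2 fold change -1.48 ± 0.4, adjusted p = 0.00427), NDRG1 (-1.11 ± 0.04, adjusted p = 8.46e-27), APLN (-1.07 ± 0.2, adjusted p = 4.42e-05) and DDIT4 (-0.95 ± 0.1, adjusted p = 3.07e-08) had the largest falls among genes that reach 1 FPKM. APLN was at 0.998, 1.01 and 1.14 FPKM in boiled medium, and the other values are given above. No boiled library reached the range of the senescent libraries in these genes. VEGFA was the gene that rose, at 8.63, 8.7 and 9.62 FPKM in boiled medium (log2 fold change 0.33 ± 0.08, adjusted p = 0.00589). All 7 collagen genes fell, by log2 fold changes of -0.77 to -0.16, although the fall of PLOD2 was not called with library totals (adjusted p = 0.0689). In the mitochondrial group 4 of 5 fell while AK4 was not called (-0.01 ± 0.05). ANGPTL4 was not called either (-0.08 ± 0.11, adjusted p = 0.653).

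Cells pre-treated with conditioned medium also stood apart from fresh medium. After proliferative pre-treatment 36 genes rose and 0 fell, beside 15.1% and 16.7% of all genes, with a median of 1.25. In edgeR 0 fell at an unadjusted p under 0.05, and by DESeq2 0 fell. With a correction for GC content and gene length, however, 1 of 7 collagen genes was called lower. After senescent pre-treatment 36 rose and 1 fell, beside 14.6% and 15.6%, with a median of 1.07. Both share the fresh libraries. Proliferation markers fell in both, 4 of 4 and 4 of 4, to sums of 235 to 253 FPKM after proliferative and 269 to 285 FPKM after senescent pre-treatment, and their part was not tested. ANGPTL4 led both: it was at 19, 17.6 and 15.9 FPKM after proliferative pre-treatment (log2 fold change 4.09 ± 0.12, adjusted p = 9.94e-29) and at 14.7, 15 and 16.7 FPKM after senescent pre-treatment (3.92 ± 0.12, adjusted p = 7.44e-28). CA9 was at 1.15, 0.626 and 0.7 FPKM (3.25 ± 0.58) and 0.76, 1.26 and 1.38 FPKM (3.73 ± 0.55). Neither gene overlapped with fresh medium in either group. NDRG1 was at 119.95, 108 and 110.4 FPKM (2.73 ± 0.04) and 102, 105 and 104 FPKM (2.61 ± 0.04), and STC1 at 8.88, 8.05 and 7.93 FPKM (2.65 ± 0.1) and 7.91, 7.13 and 7.8 FPKM (2.53 ± 0.1). These also stayed clear of the fresh range in each library. ADM was at 17.2, 17.5 and 16.3 FPKM after proliferative pre-treatment, not called (0.31 ± 0.13), and at 8.22, 10.7 and 12.1 FPKM after senescent pre-treatment (-0.39 ± 0.13, adjusted p = 0.0295). The latter fall was not called on leaving out any fresh library or pre-treated replicate 1 or 2, with adjusted p from 0.0556 to 0.148.

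Pre-treatment was then set against direct exposure to the same medium. In pre-treated against direct proliferative medium 10 genes rose and 19 fell, beside 13% and 13.5% of all genes, with a median of -0.2. All 7 collagen genes fell, and 4 of 5 mitochondrial genes fell, while 4 of 9 sensing and transcription genes and 3 of 6 signals rose. Among genes that reach 1 FPKM, LOX, at 6.96, 8.21 and 7.86 FPKM after pre-treatment (log2 fold change -1.08 ± 0.07, adjusted p = 1.74e-16), and CA9 (-1.04 ± 0.37, adjusted p = 0.0309) fell most. Both stayed below the direct libraries without overlap, but the CA9 call was lost without proliferative replicate 1 or 3 or pre-treated replicate 2 or 3, with adjusted p from 0.0597 to 0.133. Counts of CA9 were 30, 18 and 21 in the pre-treated libraries.

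The 10 genes that rose after proliferative pre-treatment were ANGPTL4, DDIT4, ADM, ANKRD37, PFKFB3, BHLHE40, EGLN3, KDM3A, FUT11 and VEGFA. ANGPTL4 had the largest difference (1.55 ± 0.09, adjusted p = 7.31e-17), followed by DDIT4, at 76.3, 57.4 and 63.5 FPKM (1.36 ± 0.09, adjusted p = 8.21e-13), and ADM (1.02 ± 0.14, adjusted p = 5.1e-06). A lipase inhibitor, an mTOR inhibitor and a vasodilator peptide were thus higher than in direct medium, each without overlap. ANKRD37 was at 4.2, 4.3 and 4.47 FPKM against 2.62, 2.33 and 2.19 FPKM (0.85 ± 0.16), PFKFB3 at 34.1, 29.9 and 30.7 FPKM against 18.3, 17.3 and 18.2 FPKM (0.81 ± 0.06) and BHLHE40 at 112, 105 and 106 FPKM (0.78 ± 0.04). KDM3A was at 13.6, 14.2 and 14.4 FPKM against 10.3, 10.2 and 10.1 FPKM (0.46 ± 0.05), FUT11 at 42.3, 43.8 and 42.9 FPKM (0.4 ± 0.05) and VEGFA at 17.5, 14 and 15.1 FPKM (0.35 ± 0.08). ANKRD37, PFKFB3, BHLHE40, KDM3A and FUT11 were higher in every pre-treated library. EGLN3 was at 1.15, 0.876 and 0.93 FPKM against 0.564, 0.786 and 0.548 FPKM (0.63 ± 0.21, adjusted p = 0.0198), and its call was lost without proliferative replicate 1 or 3 or pre-treated replicate 1, with adjusted p from 0.0931 to 0.0993.

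In pre-treated against direct senescent medium 12 genes rose and 11 fell, beside 19.6% and 22.5% of all genes, with a median of -0.002 (0.087 with library totals), so the shares were not far from those of all genes. ANGPTL4 rose by 1.91 ± 0.1 (adjusted p = 9.29e-20). DDIT4 was at 35.7, 36.2 and 42.8 FPKM (1.18 ± 0.09, adjusted p = 1.65e-11), VEGFA at 12.7, 13.1 and 13.5 FPKM (0.87 ± 0.08, adjusted p = 2.56e-08) and PPFIA4 at 8.43, 8.35 and 8.35 FPKM (0.74 ± 0.07, adjusted p = 6.34e-12). Every pre-treated library was above every direct library in these 4 genes. The 11 genes that fell were LOX, FAM162A, ERO1A, BNIP3, STC1, LOXL2, NDRG1, GBE1, BNIP3L, P4HA2 and PLOD2, with log2 fold changes of -0.73 to -0.11. LOX was at 8.08, 8.22 and 7.92 FPKM against 13.5, 12.9 and 13.7 FPKM (-0.73 ± 0.07, adjusted p = 6.15e-12), FAM162A at 19.1, 18.1 and 19 FPKM (-0.59 ± 0.06), ERO1A at 20.04, 19.8 and 18.1 FPKM against 26.1, 27.5 and 29.7 FPKM (-0.53 ± 0.05) and BNIP3 at 58.3, 54 and 58.1 FPKM (-0.38 ± 0.04). These 4 genes were lower than in direct medium after pre-treatment with either medium, here without overlap between the groups. By role, 5 of 7 collagen genes fell, while 3 of 5 mitochondrial genes fell and 2 rose. LOXL2 was at 47.8, 45.7 and 45 FPKM against 57.1, 59.7 and 55.8 FPKM, GBE1 at 29.6, 29.3 and 26.9 FPKM against 32.8, 32.4 and 35.8 FPKM, and BNIP3L at 51.6, 52.1 and 52 FPKM against 58.5, 59.1 and 64.5 FPKM. P4HA2 was at 7.59, 7.39 and 7.63 FPKM against 9.23, 9.16 and 7.9 FPKM (-0.22 ± 0.06, adjusted p = 0.00325) and lost its call when counts were scaled by library totals (adjusted p = 0.0751). The small fall of PLOD2, at 49.8, 51.1 and 46.8 FPKM against 53.3, 52.6 and 53 FPKM (-0.11 ± 0.04, adjusted p = 0.0394), was lost under library totals (-0.022, adjusted p = 0.728) and on leaving out senescent replicate 1, 2 or 3 or pre-treated replicate 1 or 3, with adjusted p from 0.051 to 0.217. The count of collagen genes that fell was 3 with library totals. It was 4 with DESeq2, without a filter on low counts, with limma and in a fit of only these groups. STC1 (-0.34 ± 0.08) and NDRG1 (-0.3 ± 0.04), with the values given above, were lower in each pre-treated library.

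Between the pre-treated groups, senescent against proliferative, 8 members fell and 1 rose, beside 0.265% and 0.625% of all genes, with a median of -0.12. DDIT4 (-0.78 ± 0.09, adjusted p = 2.13e-06) and ADM (-0.71 ± 0.13, adjusted p = 0.00653), with the values above, had the largest falls, and in both the ranges of the 2 groups did not overlap. SLC2A3 was at 20.6, 20.4 and 19.9 FPKM against 25.6, 24.9 and 25.3 FPKM (-0.31 ± 0.04, adjusted p = 1.0e-05). ANKRD37 was at 2.61, 3.1 and 2.23 FPKM (-0.7 ± 0.15, adjusted p = 0.0101), a call lost without proliferative pre-treated replicate 3 or senescent pre-treated replicate 1 or 3, with adjusted p from 0.0517 to 0.0953. LOXL2 was the gene that rose, at 47.8, 45.7 and 45 FPKM against 40.9, 40.9 and 40.4 FPKM (0.18 ± 0.04, adjusted p = 0.00989), and was not called without proliferative pre-treated replicate 3 (adjusted p = 0.0654) or senescent pre-treated replicate 1 (adjusted p = 0.111). Without either of these libraries, 5 of the 39 genes were called in place of 9.

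Whether the senescent-minus-proliferative difference itself changed with pre-treatment was tested as an interaction, positive where the difference was higher after pre-treatment than in direct medium. It was positive for 17 of the 39 genes and negative for 2, beside 5.58% and 8.19% of all genes, with a median of 0.21. WSB1 had an interaction of 0.88 ± 0.06 (adjusted p = 1.2e-14) on the log2 scale: it was lower in senescent medium given directly (-0.88 ± 0.04), while the pre-treated groups, at 29, 28.3 and 27.4 FPKM for senescent and 28.9, 27.8 and 27.9 FPKM for proliferative, differed by 0.004 ± 0.04. PPFIA4 had an interaction of 0.79 ± 0.1 (adjusted p = 5.65e-08), with -0.83 ± 0.07 direct and -0.04 ± 0.07 after pre-treatment. VEGFA had one of 0.52 ± 0.12 (adjusted p = 0.00371), with -0.76 ± 0.08 and -0.24 ± 0.08. These genes therefore fell in direct senescent medium and lay closer together, uncalled, after pre-treatment. ADM went the other way, with an interaction of -0.77 ± 0.2 (adjusted p = 0.00965), 0.06 ± 0.14 direct and -0.71 ± 0.13 after pre-treatment. PFKFB3 was also negative (-0.26 ± 0.08, adjusted p = 0.03), from -0.05 ± 0.06 direct to -0.31 ± 0.06 after pre-treatment, and was not called without proliferative replicate 2, senescent replicate 1 or 2, proliferative pre-treated replicate 1 or senescent pre-treated replicate 2, with adjusted p from 0.0728 to 0.106. By role, the interaction was positive for 6 of 7 collagen genes and 4 of 5 mitochondrial genes. PLOD2 is one of these collagen genes (0.18 ± 0.06, adjusted p = 0.0466), and its call was lost with DESeq2 (adjusted p = 0.0502), with the replicate block (0.0582), without a filter, with limma and in 10 of the 12 fits that leave out 1 library, where its adjusted p ran up to 0.155. Among the mitochondrial genes, BNIP3L (0.21 ± 0.06, adjusted p = 0.0168) was not called without proliferative replicate 2 or senescent replicate 1 or 2, with adjusted p up to 0.0663, and FAM162A (0.27 ± 0.08, adjusted p = 0.0165) was not called without proliferative replicate 3 or senescent replicate 3, with adjusted p up to 0.069.

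**Figure D4:**
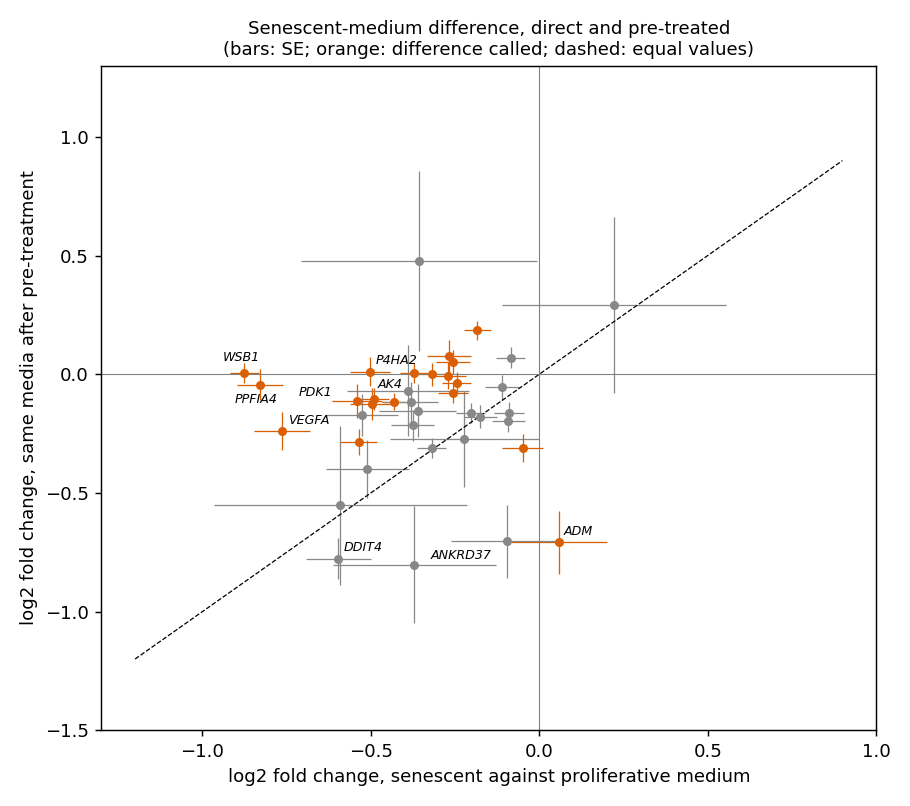
Each point is 1 of the 39 genes: the horizontal axis is its log2 fold change for senescent against proliferative medium given directly, the vertical axis the same after pre-treatment, with SE bars, and orange points are the 19 genes with an interaction called. Most orange points lie left of 0 and near 0 on the vertical axis, with WSB1 farthest left and ADM below 0.

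The HIF subunits and their regulators, a list of 19 genes, were counted in the same comparisons. In proliferative against fresh medium 8 rose and 7 fell, beside 20.6% and 21.5% of all genes. In senescent medium 6 rose and 2 fell, beside 18.2% and 15.5%, and in the large fraction 5 and 1, beside 13.9% and 13%. In the small fraction 8 rose and 6 fell, beside 22.1% and 22.5%. Boiled medium gave 6 and 0, beside 14% and 13.9%, and 1 fell at an unadjusted p under 0.05 in edgeR. EPAS1, the HIF-2 alpha subunit, had the largest rise. It was at 0.621, 0.669 and 0.781 FPKM in fresh and 2.39, 2.44 and 2.36 FPKM in proliferative medium (log2 fold change 1.79 ± 0.13, adjusted p = 5.74e-15), and at 3.02, 2.63 and 2.59 FPKM in the small fraction (1.98 ± 0.13, adjusted p = 9.2e-17). Its transcript was thus above fresh medium both where the targets were high and in the small fraction, where most were not. HIF1A, the HIF-1 alpha subunit, was at 62.3, 63 and 65.2 FPKM in fresh, 58.7, 55.5 and 56 FPKM in proliferative (-0.17 ± 0.07, adjusted p = 0.0457, close to the threshold) and 86.6, 88.2 and 98.9 FPKM in the small fraction (0.52 ± 0.07, adjusted p = 6.18e-07). The small fraction held more HIF1A transcript than the large fraction (0.36 ± 0.06, adjusted p = 1.31e-04). CITED2, which competes with HIF for its coactivators, rose in both proliferative medium (0.68 ± 0.05) and the small fraction (1.02 ± 0.05), and VHL rose by 0.12 ± 0.05 and 0.39 ± 0.05. HIF activity is set mainly through protein stability, and these are transcript levels; protein was not measured.

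**Figure D5:**
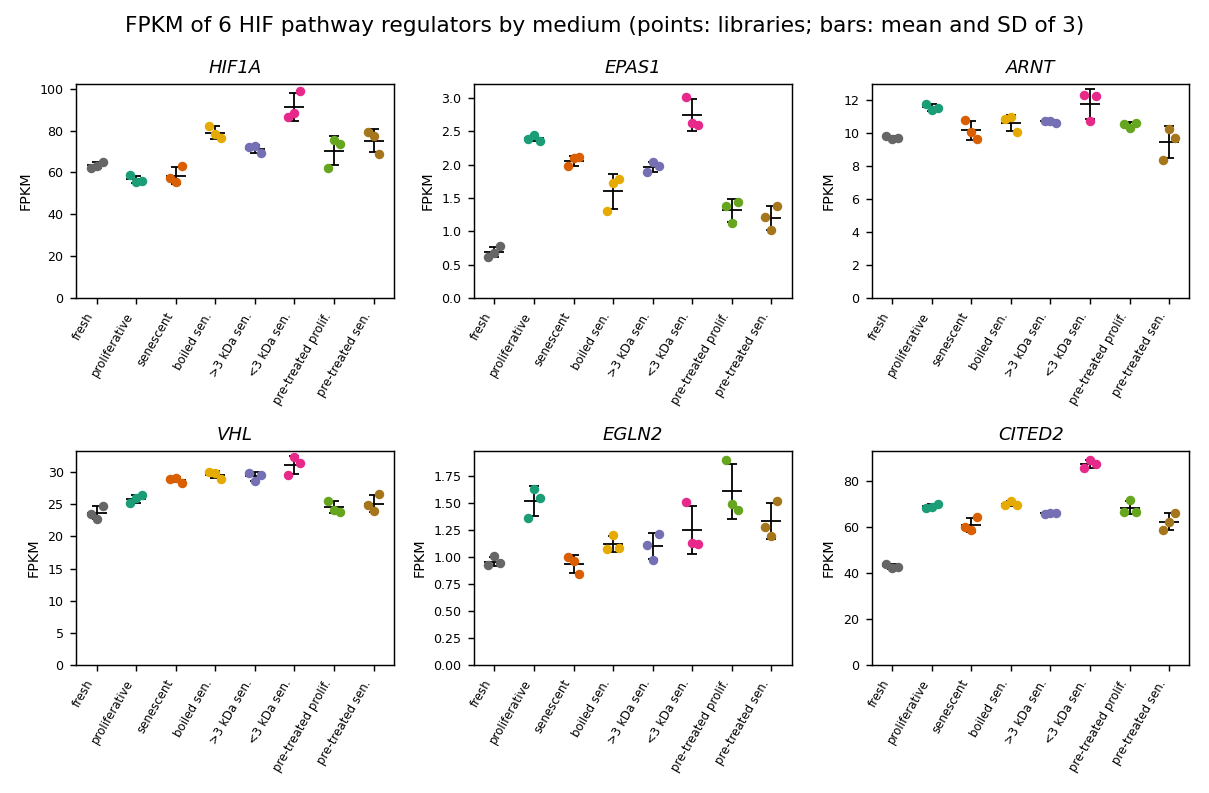
FPKM (vertical axis) of 6 HIF subunits and regulators in the 24 libraries by medium group (horizontal axis); points are libraries and bars the mean and SD of 3. EPAS1 is lowest in fresh medium and highest in the small fraction and proliferative medium, and HIF1A is highest in the small fraction.

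Core glycolysis, 17 genes and another known HIF output kept outside the list of 39, had its counts beside the members' in each comparison. Against fresh medium 16 of 17 rose in proliferative medium (20.6% of all genes), 16 in senescent (18.2%), 16 in the large fraction (13.9%) and 14 in boiled medium (14%), with 0 falling in edgeR, also at an unadjusted p under 0.05. In the small fraction 14 fell and 1 rose, beside 22.5% and 22.1% of all genes. In the small against the large fraction 16 of 17 fell, beside 18.3%. HK2, the hexokinase that commits glucose to glycolysis, was at 3.91, 3.94 and 3.67 FPKM in fresh, 16.7, 17.7 and 19.2 FPKM in proliferative (2.21 ± 0.07, adjusted p = 1.72e-27) and 2.16, 1.86 and 1.88 FPKM in the small fraction (-2.97 ± 0.08, adjusted p = 5.69e-31, here against the large fraction). PGK1, which makes ATP in the lower part of the pathway, rose by 1.75 ± 0.03 in proliferative medium and changed by -2.0 ± 0.03 in the small against the large fraction. PFKM, the muscle form of phosphofructokinase, was the gene that rose in the small fraction against fresh (0.27 ± 0.06) and against the large fraction (0.32 ± 0.06). After pre-treatment 13 of 17 were lower than in direct proliferative medium, beside 13.5% of all genes, and 10 were lower than in direct senescent medium, beside 22.5%.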

How the data were processed

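Polyadenylated RNA of 24 libraries, 3 in each of 8 medium groups, was measured. The deposited table gives raw counts per gene, per the file headers, and FPKM values of the same libraries, together with gene length. The authors' deposited FPKM are the counts scaled by gene length and by a library constant that was 0.966 to 1.04 times the total count. The submitters' processing notes name STAR 2.6.1, DESeq2 (version 2) and build GRCh38 without roles. The read counter, strand setting and annotation release were not given in the sources used here.

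Groups came from the sample titles. Counts of the 19210 genes kept by filterByExpr, out of 58735, went into edgeR 4.0.16 under R 4.3.3 (TMM factors, robust quasi-likelihood F test, 1 mean per group over all 24 libraries, 16 residual degrees of freedom). Within each of 16 contrasts the two-sided p-values had a Benjamini-Hochberg adjustment, and a gene was called under 0.05. A second rule asked for an absolute log2 fold change of at least 1 as well. Standard errors are approximate, from the absolute log2 fold change over the root of the F statistic. With 3 libraries a group, the common biological coefficient of variation was 0.0638. The scripts were tested on simulated counts. Alternatives were DESeq2 1.42.0, scaling by library totals, no filter, limma 3.58.1 on log2(FPKM + 1) and log2(FPKM + 0.1), fits of only the groups compared, a replicate block, correction for GC content and gene length, and leaving out each library.

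The 39 members and the lists (7 roles, regulators, glycolysis, cell markers) were chosen with earlier results of these data known. Values in every library are given for the 3 largest called changes per role in proliferative against fresh medium, for the 4 largest in each other comparison, with a mean of at least 1 FPKM in a group, and for members called against the majority. Libraries with equal replicate numbers did not deviate together more than those with different numbers, so no pairing was used. No 2 libraries of a group were copies. Promoter windows came from RefSeq.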

Additional observations from a re-analysis of the deposited data

Results flagged for a closer look

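The senescent-minus-proliferative difference was unequal between direct medium and the pre-treated groups in 19 of the 39 genes, by the interaction term of the edgeR fit (adjusted p under 0.05, over 3 libraries a group). Positive values, higher after pre-treatment, were found for WSB1 (0.88), PPFIA4 (0.79), VEGFA (0.52), P4HA2 (0.51), PDK1 (0.43), AK4 (0.39), P4HA1 (0.38), LOXL2 (0.37), ENO2 (0.37), LOX (0.34), NDRG1 (0.32), GBE1 (0.32), PLOD1 (0.31), FAM162A (0.27), PFKFB4 (0.25), BNIP3L (0.21) and PLOD2 (0.18). Negative values were found for ADM (-0.77) and PFKFB3 (-0.26). All are log2 differences of differences. Some of these calls were lost when 1 of the 12 libraries was left out: PLOD2 in 10 such fits, PFKFB4 in 6 (0.18 without senescent replicate 3, adjusted p = 0.117), PFKFB3 in 5, BNIP3L in 3 and FAM162A in 2. PLOD2 was also lost with DESeq2 (adjusted p = 0.0502) and with the replicate block (0.0582). WSB1 had the smallest adjusted p (1.2e-14) and PLOD2 the largest (0.0466). The labels do not say what followed the pre-treatment, so its share in these differences was not tested.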

How the results depend on the processing

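Of the 469 calls of a member in a comparison, 4 were lost with DESeq2, 9 with library totals, 10 without a filter on low counts, 10 and 15 with limma on log2(FPKM + 1) and log2(FPKM + 0.1), 11 when only the groups compared were fitted, 7 with a correction for GC content and gene length, and 34 when some 1 library was left out. No called value changed sign and stayed called; PLOD2 in the small fraction against fresh medium went from -0.12 to 0.074 under the GC and length correction, no longer called. The count of members called for senescent against proliferative pre-treatment was 9. It was 5 when only those groups were fitted and 5 to 9 with 1 library left out. Over all alternatives other than leaving out a library it ran from 5 to 12. In the other comparisons each alternative kept the count within 1.5 times. With the replicate block 2 of 469 calls were lost, and the count for senescent against proliferative pre-treatment was 8. Over 84 pairs of equal replicate number the correlation of deviations ran from -0.375 to 0.559 (median -0.017), with 14 above 0.1. Over 168 pairs of different number it ran from -0.551 to 0.428 (median 0.003), with 27 above 0.1. Pairs of equal number thus did not stand out. CA9, CA12, BHLHE41 and EGLN3 have few counts, which limits how well their changes can be measured.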
